A study of Mus musculus with 9 samples.

Results

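The genes described here encode bone morphogenetic proteins (BMPs) and secreted proteins that bind them: the ligands Bmp2, Bmp4, Bmp5, Bmp6, Bmp7 and Bmp10 and the antagonists Grem1, Nog and Chrdl1. They were taken by symbol from the table of read counts, and all 9 were found among its 24964 symbols. Bulk RNA sequencing covered 9 C57BL/6JR mice, all male and 8 weeks old, 1 heart a library. Of these, 3 had the operation with no vessel tied (sham), and 6 had a suture placed around the left anterior descending artery to cause a myocardial infarction (MI), with the heart taken 7 d (3 mice) or 28 d (3 mice) afterwards. All were under isoflurane for the operation, and the labels name no transgene or other drug. They do not say which part of the heart was taken or give the time after surgery of the sham hearts.

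BMPs are dimeric ligands of the TGF-beta superfamily. They bind pairs of type I and type II serine/threonine kinase receptors, which phosphorylate SMAD1, SMAD5 and SMAD9; these enter the nucleus with SMAD4 and switch on targets such as the Id genes. Gremlin, noggin and chordin-like proteins bind BMPs outside the cell and keep them from their receptors. In the heart the pathway is known for its part in the formation of chambers and valves, and in the adult for its actions on endothelial cells, fibroblasts and cardiomyocytes.

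The libraries held 12351525 to 19238101 counts. Levels are in CPM, each count divided by the library total as scaled by edgeR's TMM method. A gene "rose", "fell" or "passed" where its p from edgeR's quasi-likelihood test, adjusted over the 14347 genes tested by the Benjamini-Hochberg method, was under 0.05. Both infarct groups were compared with the same 3 sham libraries. Fold changes on the log2 scale (log2 FC) carry their SE and means their SD, with n = 3 hearts a group. All 8 ventricular cardiomyocyte markers fell at both times, with sums of 118773 to 122846 CPM in the sham group, 18582 to 23505 CPM in the 7 d group and 40410 to 69803 CPM in the 28 d group. In 3 libraries (MI 7 d replicate 3, MI 28 d replicates 1 and 3) Adipoq, an adipocyte hormone, lay between 122 and 217 CPM against at most 3.12 CPM in the other 6, so the values of the tested genes are also given without them. That leaves 28 d with 1 library, assumed to vary like the others.

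In bulk tissue a change in the number of cells of a type and a change in RNA per cell cannot be told apart. Of the 9 genes 6 had enough counts to be tested. At 7 d Bmp2, Bmp4 and Chrdl1 rose and Bmp7 fell, so 4 of 6 passed, and 74.4% of all tested genes did so (39.0% higher, 35.4% lower). At 28 d against sham the same 4 genes passed in the same directions, beside 55.1% of all tested genes (29.5% higher, 25.6% lower). Between 7 d and 28 d Bmp2 and Bmp7 rose and Bmp4 fell, 3 of 6, beside 55.2% of all (29.1% higher, 26.1% lower). With so many genes past the threshold, these counts of members are near what the whole table showed. Bmp5 and Bmp6 passed in none of the 3 comparisons, and Bmp10, Grem1 and Nog had too few counts for the test.

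**Figure D1:**
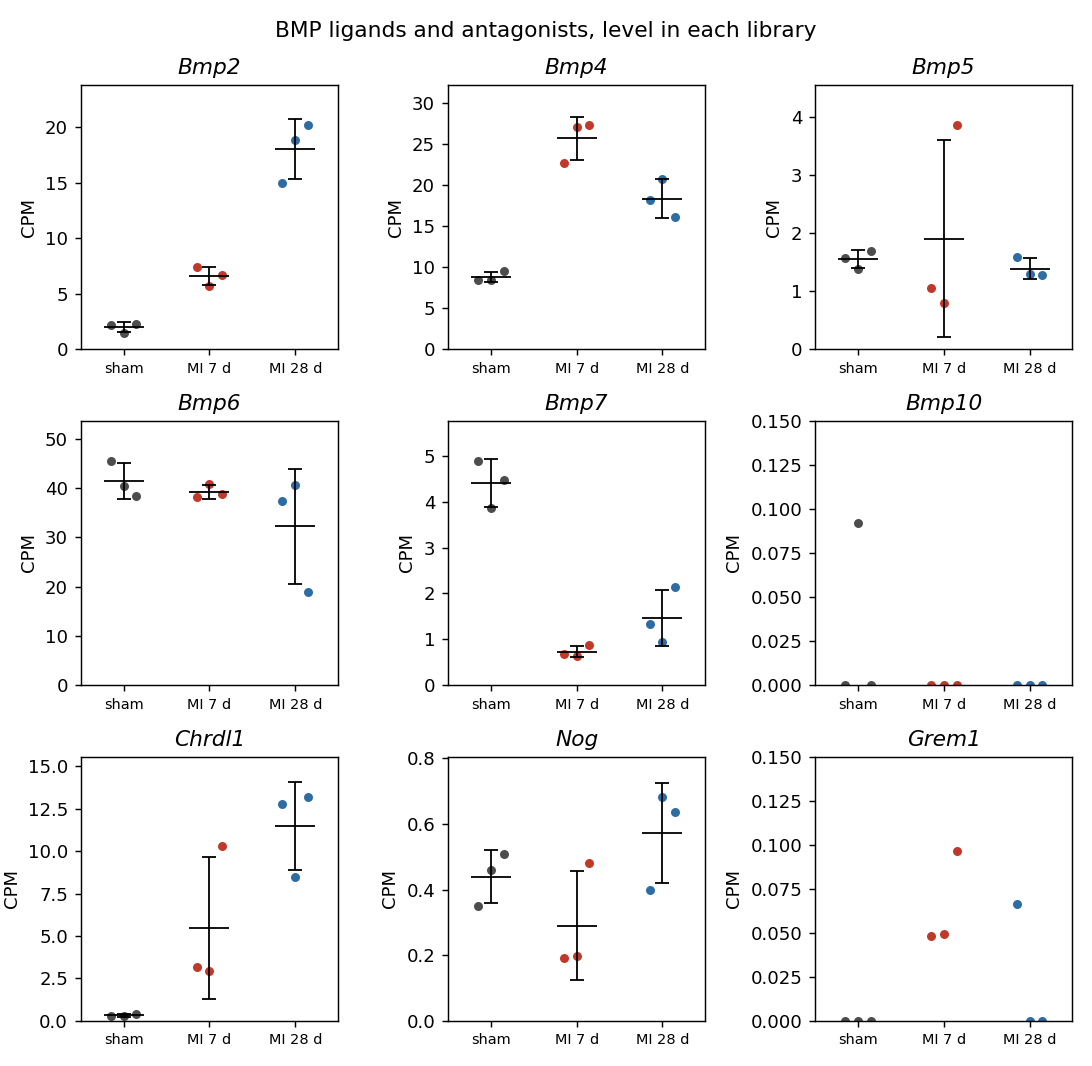
Level of each gene in CPM (vertical axes, each from 0) in the 9 libraries, one point a library, grouped as sham, MI 7 d and MI 28 d; bars are means ± SD and are left out for Bmp10 and Grem1. Bmp2 and Chrdl1 are highest at 28 d, Bmp4 at 7 d and Bmp7 in sham hearts, while Bmp10 and Grem1 stay below 0.1 CPM in all libraries.

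To set the most abundant ligands beside genes that were nearly silent, the 250 bases before the annotated start are shown for the 2 ligands with the highest levels, Bmp4 and Bmp6, and for Bmp10 and Grem1, which gave almost no reads. They are RefSeq sequences of GRCm38.p6, read 5′ to 3′ on the strand of the gene, at chr14:46390670-46390919 (minus), chr13:38345466-38345715 (plus), chr6:87428744-87428993 (plus) and chr2:113758649-113758898 (minus). Capitals mark GGGCGG (the GC box, on either strand, so also CCGCCC) and the palindrome GGCGCC, a GC-rich motif of the kind SMADs can bind.
Bmp4: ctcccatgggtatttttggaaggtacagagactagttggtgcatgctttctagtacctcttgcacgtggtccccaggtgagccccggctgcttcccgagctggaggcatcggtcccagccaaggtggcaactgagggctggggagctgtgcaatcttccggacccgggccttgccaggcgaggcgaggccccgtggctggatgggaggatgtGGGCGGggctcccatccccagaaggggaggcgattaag
Bmp6: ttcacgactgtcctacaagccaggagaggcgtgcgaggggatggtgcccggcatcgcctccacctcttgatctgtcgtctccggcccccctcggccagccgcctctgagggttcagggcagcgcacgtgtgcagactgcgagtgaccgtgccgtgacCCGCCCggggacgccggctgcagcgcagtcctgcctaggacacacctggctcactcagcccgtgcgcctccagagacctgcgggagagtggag
Bmp10: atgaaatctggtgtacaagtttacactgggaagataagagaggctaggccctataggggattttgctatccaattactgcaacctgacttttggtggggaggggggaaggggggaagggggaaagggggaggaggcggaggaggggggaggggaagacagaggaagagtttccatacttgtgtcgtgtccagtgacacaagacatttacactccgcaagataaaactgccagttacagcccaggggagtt
Grem1: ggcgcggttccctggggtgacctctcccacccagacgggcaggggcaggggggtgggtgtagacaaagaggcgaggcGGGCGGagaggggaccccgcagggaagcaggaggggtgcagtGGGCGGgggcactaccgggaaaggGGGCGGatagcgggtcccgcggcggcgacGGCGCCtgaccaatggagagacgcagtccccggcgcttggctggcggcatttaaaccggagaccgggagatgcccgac

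The GC content of these windows was 63.2% for Bmp4, 68.8% for Bmp6, 52% for Bmp10 and 72% for Grem1, against a median of 52.4% over 32851 promoters. They held 11, 22, 3 and 24 CG dinucleotides in the same order, and the median promoter held 6. A GC box lay 38 bases before the start of Bmp4 and 93 bases before that of Bmp6, and Grem1 had 3 of them and 1 GGCGCC. Of all promoters of this length, 32.7% held GGGCGG and 9.59% held GGCGCC. The near-silent Grem1 had the most GC-rich window of the 4, so the order by GC content was not the order by level. The window of Bmp5, whose GC content was 42.8%, held neither motif. None of the 5 windows held AP-1 (TGANTCA, in 6.75% of promoters) or TATAAA (in 12.4%).

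Bmp6, a ligand made largely by endothelial cells in other organs and known for its control of iron balance, was the most abundant of the BMP ligands in sham hearts. Per kilobase of exon, sham levels stood in the order Bmp6 (10.6 ± 0.919 CPM per kb), Bmp4 (3.91 ± 0.291), Bmp7 (1.1 ± 0.128), Bmp2 (0.556 ± 0.124) and Bmp5 (0.384 ± 0.0389). The ranges of neighbours in this order did not overlap, except that Bmp5 reached 0.42 and the lowest Bmp2 library was at 0.414. Of the 4025 exon bases of Bmp5, 1878 are shared with an antisense gene model. Its level per kilobase, and so its place beside Bmp2, is uncertain without the strand setting. At 7 d Bmp4 (11.4 ± 1.17) and Bmp6 (10.1 ± 0.361) overlapped in their ranges, as they did at 28 d (8.19 ± 1.06 and 8.27 ± 3). Bmp2 came next at both times, with 1.86 ± 0.235 and then 5.07 ± 0.758 CPM per kb. At 28 d the highest Bmp2 library (5.67) lay above the lowest Bmp6 library (4.84).

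Summed per kilobase, the 6 ligands came to 17.6, 15.9 and 16.3 CPM per kb in the sham libraries, 22.4, 24.5 and 25.1 at 7 d, and 22.6, 25.6 and 18.5 at 28 d. All 6 infarct libraries lay above the sham libraries, and the lowest of them was MI 28 d replicate 3. Bmp6 made up 64 ± 3.01% of this sum in sham hearts, 42 ± 2.17% at 7 d and 36.4 ± 8.9% at 28 d. The share of Bmp4 went from 23.7 ± 2.44% to 47.5 ± 2.2% and then 36.9 ± 1.51%. Bmp2 held 3.34 ± 0.674%, 7.79 ± 1.39% and 23.4 ± 6.37%, and Bmp7 6.6 ± 0.468%, 0.753 ± 0.102% and 1.75 ± 1.02%. These shares describe the make-up of the transcripts of the 6 ligands only and were not tested. They leave out Gdf6, a related ligand described below. At 7 d Gdf6 was at 68 ± 11.8 CPM, above Bmp6 (39.3 ± 1.41 CPM) and Bmp4 (25.7 ± 2.63 CPM).

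**Figure D2:**
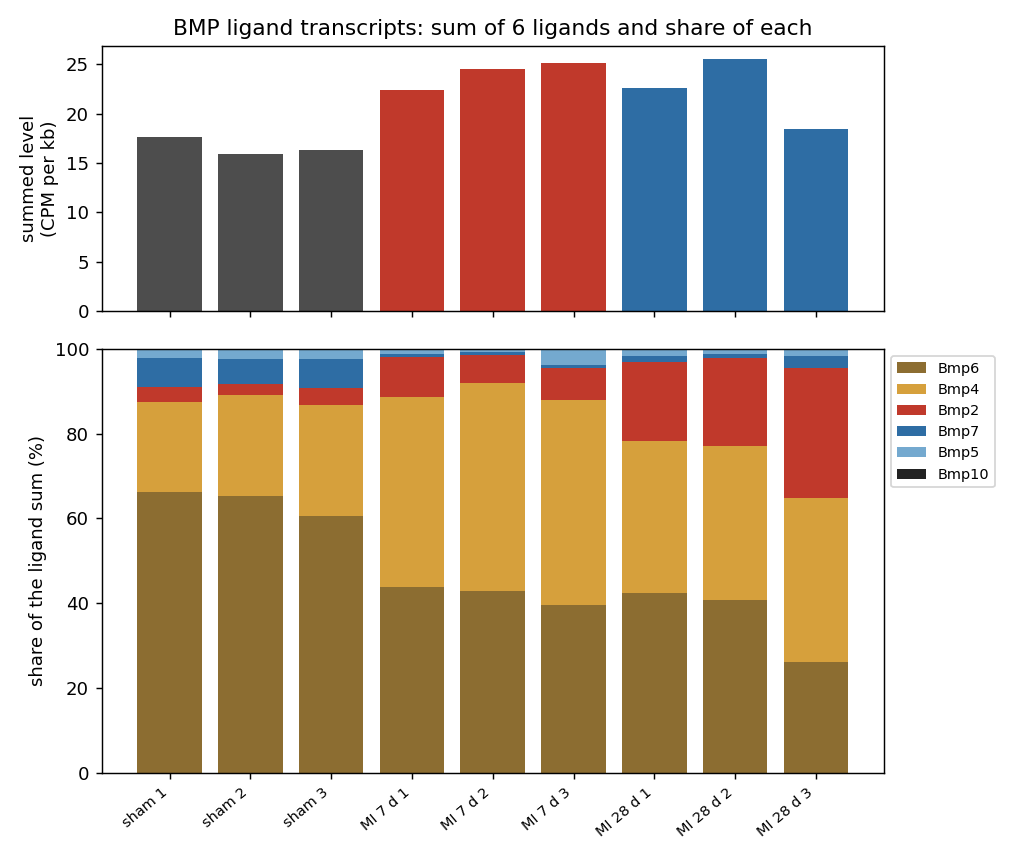
Top, summed level of the 6 BMP ligands in CPM per kilobase of exon in each of the 9 libraries; bottom, the share of each ligand in that sum in percent. Bmp6 makes up 60.6 to 66.2% in sham libraries, Bmp4 45 to 49.2% at 7 d, and Bmp2 18.6 to 30.6% at 28 d.

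Bmp2, a ligand that drives bone and cartilage formation and is needed for the cushions of the embryonic heart, rose at both steps. Its level was 2.18, 1.47 and 2.28 CPM in the sham libraries, 7.41, 5.74 and 6.69 CPM at 7 d, and 15, 18.9 and 20.2 CPM at 28 d. The 3 groups did not overlap. It rose 3.33-fold at 7 d (log2 FC 1.73 ± 0.20, edgeR adjusted p = 3.43e-05) and was 9.06-fold above sham at 28 d (log2 FC 3.18 ± 0.20, edgeR adjusted p = 7.73e-06). The step from 7 d to 28 d was itself a rise of 2.72-fold (log2 FC 1.45 ± 0.18, edgeR adjusted p = 0.000118). Without the Adipoq-rich libraries the 3 values were 1.71, 3.23 and 1.52 (edgeR adjusted p = 3.41e-05, 2.43e-06 and 0.000218). At 28 d it stood 360th from the top among the 14347 tested genes by fold change against sham, and at 7 d 2195th. The gene lies on chromosome 2 at 133552159-133562896 of GRCm38.

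Bmp4, the close relative of Bmp2 that shares its receptors, peaked at 7 d. Its level was 8.38, 8.46 and 9.55 CPM in the sham libraries, 22.7, 27.1 and 27.3 CPM at 7 d, and 18.2, 20.8 and 16.1 CPM at 28 d. No library of one group reached into another group. It rose 2.92-fold at 7 d (log2 FC 1.55 ± 0.13, edgeR adjusted p = 3.29e-06) and stayed 2.09-fold above sham at 28 d (log2 FC 1.06 ± 0.13, edgeR adjusted p = 0.000196). From 7 d to 28 d it fell (log2 FC -0.48 ± 0.12, edgeR adjusted p = 0.00774). That call did not hold without the 3 Adipoq-rich libraries, where the log2 FC was -0.26 (edgeR adjusted p = 0.192). The 2 rises above sham were 1.49 and 1.23 without them (edgeR adjusted p = 1.36e-06 and 0.000105). Bmp4 lies on chromosome 14 at 46383525-46390669, and 89 of its 2248 exon bases are shared with an opposite-strand gene model. The ratio of Bmp2 to Bmp4 per kilobase was 0.142 ± 0.0285 in sham hearts, 0.165 ± 0.0375 at 7 d and 0.628 ± 0.144 at 28 d. Both ligands were thus up after infarction, and their balance differed between the 2 times.

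Bmp7, a ligand best known from kidney and brown fat and often described as opposing TGF-beta in fibrosis, moved the other way. Its level was 4.89, 3.86 and 4.48 CPM in the sham libraries, 0.674, 0.644 and 0.866 CPM at 7 d, and 1.33, 0.931 and 2.14 CPM at 28 d. The groups did not overlap, although 7 d replicate 3 and 28 d replicate 2 were close. The sham libraries held 42 to 56 raw counts of it, the 7 d libraries 13 to 18 and the 28 d libraries 15 to 37, so each value carries a wide counting error. Bmp7 fell 6.0-fold at 7 d (log2 FC -2.59 ± 0.32, edgeR adjusted p = 4.55e-05) and was 2.98-fold below sham at 28 d (log2 FC -1.58 ± 0.30, edgeR adjusted p = 0.0019). By fold change it stood 493rd from the bottom of the tested genes at 7 d and 320th at 28 d. Without the Adipoq-rich libraries these values were -2.74 and -2.25 (edgeR adjusted p = 6.86e-06 and 0.000553). The ventricular cardiomyocyte markers fell in the same libraries, with a median log2 FC of -3.11 at 7 d and -1.33 at 28 d; their part in the change of Bmp7 was not tested.

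The rise of Bmp7 from 7 d to 28 d (log2 FC 1.01 ± 0.33, edgeR adjusted p = 0.0251) depended on single libraries and on the fit. It did not pass with limma's voom (log2 FC 0.94, adjusted p = 0.109), without MI 28 d replicate 3 (log2 FC 0.63, edgeR adjusted p = 0.104), without MI 7 d replicate 1 (0.96, edgeR adjusted p = 0.0694) or without MI 7 d replicate 2 (0.93, edgeR adjusted p = 0.0741). Without the Adipoq-rich libraries it was 0.49 (edgeR adjusted p = 0.389). Per kilobase, Bmp4 exceeded Bmp7 by 3.6 ± 0.464 times in sham hearts, by 63.9 ± 10.1 times at 7 d and by 26 ± 13.4 times at 28 d. Across the 9 libraries the log2 levels of Bmp4 and Bmp7 had a Pearson r of -0.973, which describes 3 groups that stand apart. Bmp7 lies on chromosome 2 at 172868012-172940321.

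Bmp6 itself did not pass. It was at 45.5, 40.4 and 38.5 CPM in the sham libraries, 38.2, 40.9 and 38.8 CPM at 7 d, and 37.3, 40.6 and 18.9 CPM at 28 d. Of these 9 values 8 lay between 37.3 and 45.5 CPM, and MI 28 d replicate 3 was the low one. The log2 FC was -0.08 ± 0.23 at 7 d (edgeR adjusted p = 0.774) and -0.36 ± 0.23 at 28 d (edgeR adjusted p = 0.204), and without that library the 28 d value was -0.09 (edgeR adjusted p = 0.44). Without the Adipoq-rich libraries the values were -0.08 and -0.04 (edgeR adjusted p = 0.472 and 0.787). In MI 28 d replicate 3 the 10 endothelial markers summed to 1130 CPM, the lowest of all 9, while sham hearts had 2723 to 2847 CPM, the 7 d group 1169 to 1946 CPM and the other two 28 d libraries 1611 and 1691 CPM. MI 7 d replicate 2, with an endothelial sum of 1169 CPM, had 40.9 CPM of Bmp6. None of the 10 markers rose at either time. At 7 d 5 fell and at 28 d 7 fell, and their part in the level of Bmp6 was not tested. Of the gene's 3900 exon bases, 224 are shared with Txndc5 on the opposite strand, and reads there cannot be assigned without the strand setting.

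Bmp5, a ligand of skeletal development, gave 15 to 24 counts in 8 libraries and 80 in MI 7 d replicate 3. In CPM it stood at 1.57, 1.38 and 1.69 in sham hearts, 1.06, 0.792 and 3.85 at 7 d, and 1.59, 1.3 and 1.27 at 28 d. The 7 d group held both the lowest values and the highest one. Its log2 FC at 7 d was 0.30 ± 0.54 (edgeR adjusted p = 0.635), and without MI 7 d replicate 3 it was -0.74 (edgeR adjusted p = 0.0536). At 28 d it was -0.16 ± 0.56 (edgeR adjusted p = 0.828), and without the Adipoq-rich libraries the 2 values were -0.745 and -0.26 (edgeR adjusted p = 0.0621 and 0.629). That library had the largest sum of adipocyte markers, 1509 CPM against 2.74 and 29.4 CPM in the other two at 7 d. MI 28 d replicates 1 and 3, with sums of 1067 and 849 CPM, had 1.59 and 1.27 CPM of Bmp5, against 1.38 to 1.69 CPM in sham hearts. The part of adipocytes in the level of Bmp5 was not tested. Of the 4025 exon bases of Bmp5, 1878 are shared with an antisense gene model, and reads in that part cannot be assigned without the strand setting.

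Bmp10, a ligand of the right atrium and of the trabeculae of the embryonic heart, was not detected beyond 1 count in sham replicate 2. A count of 0 allows up to 3 counts, or 0.0486 CPM over the 7 d group and 0.0619 CPM over the 28 d group. The atrial markers Sln and Mybphl had under 10 counts in each library. Myl7, another atrial marker, lay between 0 and 1.1 CPM in sham hearts, at most 0.144 CPM at 7 d and at most 0.682 CPM at 28 d. Of the other 5 genes on the atrial list of 8, 3 rose and 2 fell at each time. Nppa, which is also made in the stressed ventricle, went from 500.0 ± 32.3 CPM in sham hearts to 9136 ± 1919 and 14479 ± 2910 CPM, Dkk3 from 5.2 ± 0.268 to 207 ± 29.4 and 152 ± 39.9 CPM, and Myl4 from 2.36 ± 0.699 to 6.3 ± 1.95 and 5.03 ± 0.294 CPM. Kcnj3 went from 89.8 ± 8.55 CPM down to 4.65 ± 1.13 and 18.3 ± 9.44 CPM, and Stard10 from 22.1 ± 3.47 to 11.5 ± 2.6 and 15.6 ± 2.37 CPM. The atrial sum ranged over 576 to 662 CPM (sham), 7155 to 10821 CPM (7 d) and 11697 to 17577 CPM (28 d), most of it Nppa.

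Among the antagonists Chrdl1, a chordin-like protein that binds BMP4 and other BMPs, rose most. Its counts were 3, 3 and 5 in sham hearts, 66, 59 and 215 at 7 d, and 193, 137 and 228 at 28 d. In CPM these were 0.262, 0.276 and 0.423, then 3.18, 2.92 and 10.3, then 12.8, 8.5 and 13.2. Every infarct library was above every sham library, and MI 7 d replicate 3 lay among the 28 d libraries. Chrdl1 rose 16.7-fold at 7 d (log2 FC 4.06 ± 0.65, edgeR adjusted p = 0.000277) and stood 35-fold above sham at 28 d (log2 FC 5.13 ± 0.63, edgeR adjusted p = 0.000205). By fold change it was 367th from the top of 14347 tested genes at 7 d and 113th at 28 d. Without MI 7 d replicate 3 the 7 d value was 3.21 (edgeR adjusted p = 3.35e-05). Without the Adipoq-rich libraries the values were 3.20 at 7 d and 4.68 at 28 d (edgeR adjusted p = 5.28e-06 and 1.93e-06).

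From 7 d to 28 d Chrdl1 had a log2 FC of 1.07 ± 0.44 and did not pass (edgeR adjusted p = 0.0611). Without MI 7 d replicate 3 it passed, with a log2 FC of 1.91 (edgeR adjusted p = 0.000387), as it did without the Adipoq-rich libraries (1.47, edgeR adjusted p = 0.000697). It also passed with the replicate number as a block (1.26, edgeR adjusted p = 0.00747), with DESeq2 (1.06, adjusted p = 0.0453) and with voom (1.29, adjusted p = 0.0205). The 7 epicardial and mesothelial markers moved in the same libraries. The sham sums were 7.59 to 9.38 CPM, those at 7 d were 29, 60.2 and 149 CPM, and those at 28 d were 114, 138 and 788 CPM. Of these 7 markers 6 rose at 7 d and 7 at 28 d, and MI 7 d replicate 3 again had the highest sum at its time. At 28 d replicate 2, with 138 CPM, had less Chrdl1 than replicate 1, with 114 CPM. The 3 Adipoq-rich libraries had the most Chrdl1, at 10.3, 12.8 and 13.2 CPM. The other infarct libraries had 3.18 and 2.92 CPM at 7 d and 8.5 CPM at 28 d, all above sham hearts. The part of mesothelial cells or adipocytes in the rise of Chrdl1 was not tested. Chrdl1 lies on chromosome X at 143285674-143394263.

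**Figure D3:**
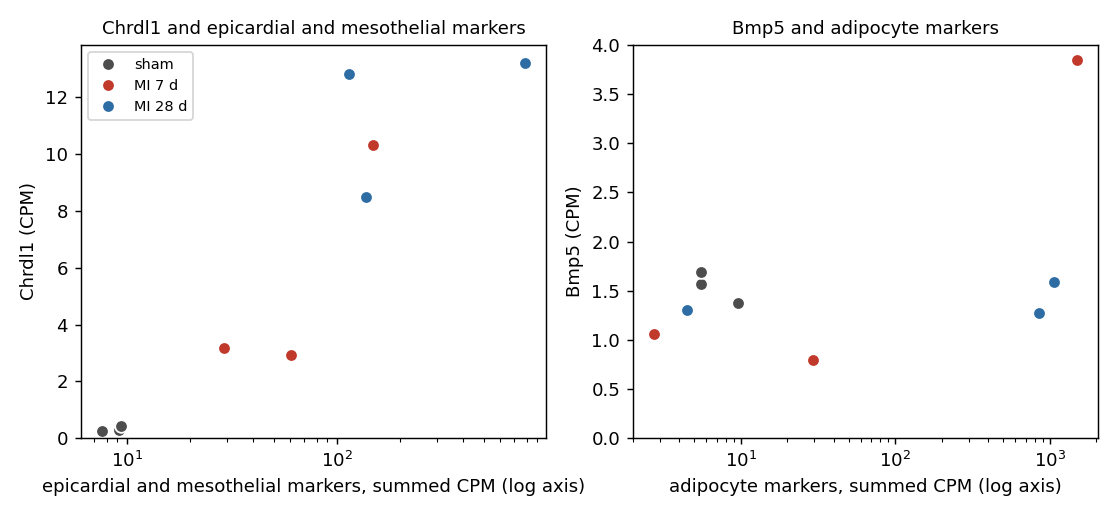
Left, Chrdl1 in CPM against the summed CPM of 7 epicardial and mesothelial markers (log axis); right, Bmp5 in CPM against the summed CPM of 7 adipocyte markers (log axis), one point a library, coloured by group. Chrdl1 is at most 0.423 CPM in the sham libraries at the left edge, and 1 of the 3 libraries with high adipocyte markers has high Bmp5, at 3.85 CPM.

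Nog, which encodes noggin, gave 4, 5 and 6 counts in sham hearts, 4, 4 and 10 at 7 d, and 6, 11 and 11 at 28 d. These came to 0.349, 0.46 and 0.507 CPM, then 0.192, 0.198 and 0.481, then 0.398, 0.682 and 0.637. The groups overlapped. In a fit of all genes with at least 1 count, Nog had a log2 FC of -0.58 at 7 d (edgeR adjusted p = 0.388) and 0.38 at 28 d (edgeR adjusted p = 0.595), so a change against sham was not detectable at this depth. From 7 d to 28 d it was 0.96 (edgeR adjusted p = 0.155). Nog entered the test in several fits that left out a library. Without MI 7 d replicate 3 it passed in that comparison (1.52, edgeR adjusted p = 0.0277). It did not pass without MI 7 d replicate 1 (0.74, edgeR adjusted p = 0.245) or MI 7 d replicate 2 (0.76, edgeR adjusted p = 0.246). Nor did it pass without MI 28 d replicate 1 (1.15, edgeR adjusted p = 0.0845). Without all 3 Adipoq-rich libraries the log2 FC of Nog was 1.76. Grem1, which encodes gremlin, a product of fibroblast-like cells in several fibrotic organs, had 0 counts in the sham libraries, 1, 1 and 2 at 7 d, and 1, 0 and 0 at 28 d. Its group levels lay under the floor of 0.0878 CPM that 3 counts give over the sham group, so no fold is given. Per kilobase the 3 antagonists summed to 0.306 ± 0.0588 in sham hearts, 0.998 ± 0.728 at 7 d and 2.05 ± 0.346 at 28 d. This was well below the sum of the 6 ligands in each library. Neither sum holds the other ligands, antagonists and modulators described below, such as Gdf6 and Fstl1. The sums therefore do not compare all BMP ligands with all antagonists.

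**Figure D4:**
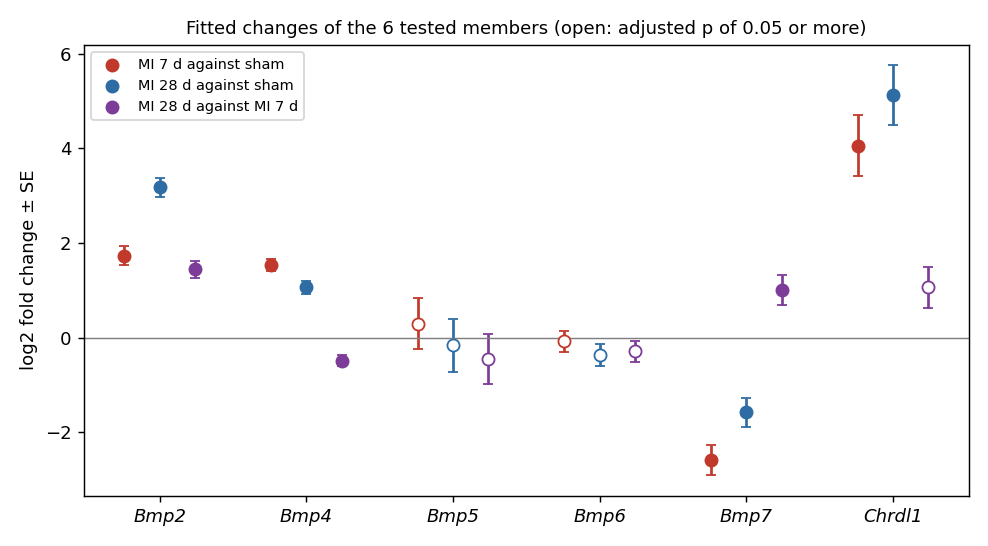
Fitted log2 fold changes ± SE (vertical axis) of the 6 tested genes in the 3 comparisons, filled where the edgeR adjusted p was under 0.05 and open otherwise. Bmp2 and Chrdl1 lie above 0 in all 3 comparisons, Bmp4 changes sign between the comparisons with sham and the one between times, and Bmp5 and Bmp6 are open throughout.

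The 3 genes most alike to each member were named by the Pearson correlation of log2 CPM over the 9 libraries. For Bmp2 these were Anxa7, Psd and Ptgfr (r = 0.987, 0.985 and 0.984), and for Bmp4 they were Gli2, Nox4 and Adam9 (0.992, 0.991 and 0.990). Bmp6 ran closest to Lrig1, Eng and Sncaip (0.965, 0.965 and 0.963), of which Eng is the BMP co-receptor endoglin of endothelial cells. Bmp7 ran closest to Hspa5, Arvcf and Rfxap (0.989, 0.982 and 0.980), and Bmp5 to Slco2b1, Lrrc8b and Slc25a10 (0.905, 0.902 and 0.901). Chrdl1 was most like Msln, C4b and Fkbp5 (0.983, 0.981 and 0.979), and Msln encodes mesothelin, one of the mesothelial markers above. These values were chosen as the highest of many and describe 9 libraries in 3 groups. For Bmp6, MI 28 d replicate 3 (18.9 CPM) lay apart from the rest, as did MI 7 d replicate 3 (3.85 CPM) for Bmp5. Such a library can weigh heavily in r.

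The rest of the pathway was described with 6 lists of 57 genes, of which 46 were tested. Of the 46, 25 were higher and 7 lower at 7 d, 26 and 7 at 28 d against sham, and 10 and 14 at 28 d against 7 d. Over all tested genes 39.0% were higher and 35.4% lower at 7 d, and 29.5% and 25.6% at 28 d against sham. At 28 d against 7 d these shares were 29.1% and 26.1%. The median log2 FC over all tested genes was 0.064, 0.054 and 0.033 in the same order. These values are the background for each list below.

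Among the other ligands only Bmp3 and Gdf6 of 8 had enough counts, and both rose at both times. Gdf6, a growth factor of joints and tendons, had 21, 17 and 18 counts in sham hearts and 1254, 1647 and 1288 at 7 d, with 129, 99 and 135 at 28 d. It was 41.3-fold above sham at 7 d (log2 FC 5.37 ± 0.19, edgeR adjusted p = 5.22e-08) and 4.56-fold at 28 d. Bmp3, an atypical family member that opposes other BMPs in bone, had 1 count in the 3 sham libraries together and 128 and 71 in the infarct groups. Its ratio to sham was 70.8 at 7 d (95% counting interval 12.5 to 2819) and 50.1 at 28 d (8.7 to 2005).

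Of the 10 tested receptors and co-receptors 3 rose and 4 fell at 7 d (median log2 FC -0.23, against 0.064 over all tested genes), and 4 rose and 3 fell at 28 d (median 0.059, against 0.054). The type I receptor genes Acvrl1, an endothelial receptor for BMP9 and BMP10, and Acvr1 rose at 7 d, from 59.3 ± 4.45 to 150.0 ± 14.7 CPM and from 28 ± 2.49 to 54.1 ± 3.02 CPM. Of the 3 type II receptor genes 2 fell at 7 d, Acvr2a from 37.1 ± 1.76 to 19.2 ± 1.95 CPM and Acvr2b from 14.4 ± 3.46 to 6.16 ± 0.794 CPM. Bmpr2, the type II receptor specific to BMPs, was at 136 ± 2.84, 116 ± 17.9 and 149 ± 6.99 CPM in the 3 groups and did not pass against sham (edgeR adjusted p = 0.0757 at 7 d and 0.309 at 28 d). Bmpr1a, the main type I receptor for BMP2 and BMP4, was at 121 ± 2.78, 107 ± 9.84 and 165 ± 8.59 CPM in the 3 groups. It passed at 28 d (log2 FC 0.45 ± 0.08, edgeR adjusted p = 0.00173) and not at 7 d (edgeR adjusted p = 0.0676). Bambi, a decoy receptor without a kinase, rose to 29.6 ± 3.19 CPM at 28 d from 16.4 ± 2.26 in sham hearts. With library size alone as the scaling, 2 receptor genes fell at 7 d in place of 4 and 1 fell at 28 d in place of 3. With DESeq2, with size factors of its type in edgeR, or with voom, 6 fell at 7 d. Bmpr1a and Bmpr2 were nearest to the threshold among the receptor genes not called at 7 d, so whether they pass can hang on the fit.

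Of the 8 genes for SMADs and inhibitors of signalling 3 rose and 0 fell at 7 d (median log2 FC 0.027), and 4 rose and 0 fell at 28 d (median 0.249). Smad1 went from 18.3 ± 0.891 to 31.9 ± 1.11 CPM at 7 d and 25.9 ± 1.58 at 28 d. The inhibitory SMAD genes, which BMP signals themselves induce, rose at both times, Smad6 2.44-fold and 1.89-fold and Smad7 1.62-fold and 1.88-fold. Smad4 rose at 28 d (log2 FC 0.29 ± 0.07, edgeR adjusted p = 0.00594), but not without the Adipoq-rich libraries (edgeR adjusted p = 0.114). With library size alone 7 of the 8 were higher at each time.

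Among 10 target genes 6 rose and 2 fell at 7 d (median log2 FC 1.02), and 5 rose and 2 fell at 28 d (median 0.677). Over all tested genes 39.0% rose and 35.4% fell at 7 d, and 29.5% rose and 25.6% fell at 28 d. Id3, which encodes an inhibitor of basic helix-loop-helix factors, went from 42.7 ± 1.72 to 184 ± 18.7 CPM at 7 d and 90.8 ± 10.7 at 28 d. Id2 rose 6.13-fold and 2.64-fold, Id4 7.38-fold and 9.43-fold, and Atoh8 2.96-fold and 1.92-fold. Runx2, the master factor of bone formation, rose 11.9-fold at 7 d and 4.36-fold at 28 d. Msx2 fell, from 8 to 13 counts in sham libraries to 2 to 5 at 7 d and 3 to 5 at 28 d, where the call was lost without the Adipoq-rich libraries (log2 FC -1.49, edgeR adjusted p = 0.113). Id1, often read as the standard BMP target and named here after its values were seen, fell at 7 d (log2 FC -0.44 ± 0.12, edgeR adjusted p = 0.00912), a call lost with library size alone as the scaling (-0.11, edgeR adjusted p = 0.496). At 28 d it was at 0.02 ± 0.12 (edgeR adjusted p = 0.926). Id1 thus passed as higher at neither time, while Id2, Id3 and Id4 did at both. All these targets also answer to other signals.

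Among the other secreted antagonists and modulators 9 of 13 tested genes rose and 1 fell at each time, with medians of 2.25 at 7 d and 1.39 at 28 d. Fst, the activin and BMP binder follistatin, went from 0.902 ± 0.183 to 28.5 ± 6.25 CPM at 7 d and 8.22 ± 3.65 at 28 d. Fstl1 went from 183 ± 8.28 to 2781 ± 284 and then 669 ± 80.3 CPM, and Bmper, a BMP-binding endothelial regulator, from 5.17 ± 0.34 to 37.6 ± 4.76 and then 8.45 ± 2.27 CPM. The call for Bmper at 28 d was lost without the Adipoq-rich libraries (log2 FC 0.36, edgeR adjusted p = 0.115). Nbl1 rose 4.75-fold and 6.17-fold. Vwc2 had 3 counts in sham hearts and 30 and 35 in the infarct groups, ratios of 5.53 (95% counting interval 1.72 to 28.3) and 8.23 (2.59 to 41.8). Its 7 d call was lost when sham replicate 1, sham replicate 3, MI 7 d replicate 3 or the Adipoq-rich libraries were left out (edgeR adjusted p = 0.0652, 0.0758, 0.0669 and 0.0538).

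The proteases that cut chordin and so release bound BMPs are Bmp1, which is no BMP ligand, and its relatives Tll1 and Tll2. Bmp1 rose from 53.2 ± 1.75 to 397 ± 45.3 CPM at 7 d and stood at 154 ± 55.2 CPM at 28 d. Tll1 rose 7.81-fold and 6.86-fold. Tll2 fell at 28 d (edgeR adjusted p = 0.0337), with 14, 7 and 14 counts in sham hearts against 6, 0 and 1, a call lost when sham replicate 1, sham replicate 3, MI 28 d replicate 2 or MI 28 d replicate 3 was left out (edgeR adjusted p = 0.0902, 0.0884, 0.0835 and 0.0796). Of 8 fibroblast markers 7 rose at 7 d and 6 at 28 d. The other one at 7 d, Gsn, fell (log2 FC -1.01 ± 0.23, edgeR adjusted p = 0.00253). Their sum was 3683 to 3839 CPM in sham hearts, 25660 to 32135 CPM at 7 d and 7301 to 12413 CPM at 28 d. The largest parts of it at 7 d were Col3a1 (13729 ± 1822 CPM) and Col1a1 (11892 ± 2014 CPM). The 8 markers of activated fibroblasts all rose at both times. Of 8 macrophage markers 8 rose at 7 d and 7 at 28 d, the sums being 536 to 602 CPM (sham), 4418 to 5457 CPM (7 d) and 944 to 1464 CPM (28 d). Of 8 chondrocyte and osteoblast markers 5 were tested, of which 4 rose and 1 fell at 7 d and 3 rose at 28 d. Beside Gdf6 and Runx2, the cartilage genes Col2a1, Acan and Sox9 went from 0.435 ± 0.215, 0.933 ± 0.145 and 3.09 ± 0.577 CPM in sham hearts to 37.1 ± 13.1, 71.6 ± 36.8 and 26.7 ± 2.54 CPM at 7 d. At 28 d they were at 1.26 ± 1.1, 3.36 ± 0.95 and 9.12 ± 3.93 CPM, and Col2a1 did not pass against sham (edgeR adjusted p = 0.154). Matn3 rose at 7 d and did not pass at 28 d. Alpl fell from 61.3 ± 1.49 to 34.8 ± 4.09 CPM at 7 d and was above sham at 28 d, at 79.2 ± 7.23 CPM. The bone gene Ibsp had 0 counts in all libraries. The part of these cell types in the pathway genes was not tested.

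**Figure D5:**
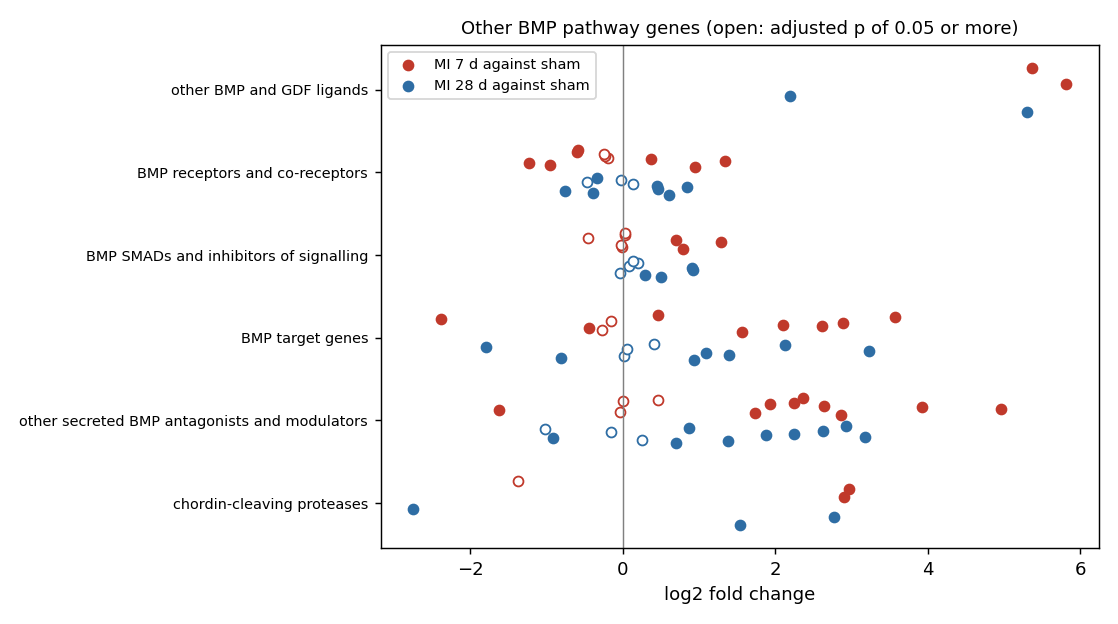
Log2 fold changes (horizontal axis) at 7 d and 28 d against sham of 45 tested genes in 6 lists of the BMP pathway (those with at least 1 count in sham hearts), filled where the edgeR adjusted p was under 0.05. In the list of other secreted antagonists and modulators 8 of the 12 genes drawn are filled on the right at each time.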

How the data were processed

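Gene expression was measured by RNA sequencing of 9 mouse hearts, with TRIzol extraction and KAPA RNA hyperPrep libraries, per the labels' protocols. Per the submitters' processing notes, Trim Galore, STAR, featureCounts and the mm10 build were used; for their versions, the annotation, the strand setting and multi-mapping reads, the sources used here give nothing. The deposited values are whole-number read counts per gene symbol, not normalized. Groups and replicate numbers come from the sample titles.

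Genes were filtered with filterByExpr (minimum count 10, minimum total 15), which left 14347, scaled by TMM (factors 0.869 to 1.12) and fitted with 1 mean per group by edgeR 4.0.16 in R 4.3.3; the two-sided quasi-likelihood test used all 9 libraries. SE is the absolute log2 FC over the square root of F. Exon lengths came from GENCODE M21, positions and promoters from RefSeq (both GRCm38), and 5 of 9 members had a promoter sequence there; Bmp2, Bmp7, Nog and Chrdl1 did not. Bounds used a floor of 3 counts, and intervals and floors cover counting error only. Alternatives used DESeq2 1.42.0, limma 3.58.1 voom, other scalings and filters, fits of the 2 groups compared, a replicate block, a 2-fold threshold, fits without the libraries over 100 CPM of Adipoq, and leaving out each library. They were extended to the pathway lists after the data were seen. The script was tested on simulated counts. Same-numbered libraries deviated with r of -0.093 to 0.303, so the numbers were not taken as pairs.

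The members, lists and tests were chosen with earlier results of these data known. The rule for named genes took all 9 members, for each list up to 4 genes past the threshold with the largest change at 7 d and up to 2 more at 28 d, and the 3 most correlated genes of each tested member; 1 gene that it took is not reported here by name.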

Additional observations from a re-analysis of the deposited data

Results flagged for a closer look

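The effects at the 2 times, both against the same sham hearts, differed for 3 members by the test of 28 d against 7 d. The difference was a log2 value of 1.45 for Bmp2, -0.48 for Bmp4 and 1.01 for Bmp7. Only that of Bmp2 passed under all alternatives run, and the other 2 are the calls that depended on the libraries named above. Leaving out each library showed which calls rested on 1 library, but groups of 3 are too small to call a single library an outlier.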

How the results depend on the processing

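The counts of members called against sham, 3 higher and 1 lower at each time, kept their value under all 16 alternatives run. At 28 d against 7 d, 2 higher became 1 when only the libraries compared were fitted and 1 to 4 when a library was left out; the 4, without MI 7 d replicate 3, include Chrdl1 and Nog. The 1 lower became 0 without the Adipoq-rich libraries and 0 with a 2-fold threshold, which Bmp4 cannot meet. With the replicate number as a block (replicate block), although the numbers were not found to pair the libraries, these counts were 3 and 1, 3 and 1, and 3 and 1; the third higher gene at 28 d against 7 d was Chrdl1. Directions that turned were all of calls not made. Bmp5 at 7 d had a log2 FC of -0.0685 with voom, -0.745 without the Adipoq-rich libraries and -0.74 to 0.66 when 1 library was left out (lowest without MI 7 d replicate 3); at 28 d it was 0.086 with library size alone, and against 7 d it was 0.48 without the Adipoq-rich libraries and -0.82 to 0.58 when 1 library was left out (highest without MI 7 d replicate 3). Bmp6 was at 0.26 with library size alone at 7 d and at 0.033 without the Adipoq-rich libraries between times. Library size alone moved the median of all genes by 0.333 at 7 d and 0.247 at 28 d against sham, and the higher share of calls from 52.5 to 67.4% and from 53.5 to 74%; the 4 members called against sham kept their calls. Of the counts of pathway lists under alternatives 503 stayed within 1.5 times and 37 did not, 31 of these by 1 gene; the others were 4 to 2 and 3 to 1 receptors lower and 3 to 7, 4 to 7 and 2 to 0 SMAD genes higher with library size alone, and 6 to 3 receptors higher from 7 d to 28 d without the Adipoq-rich libraries. Of named pathway genes, Bambi and Id1 at 7 d, and Acvr2a, Smad4 and Msx2 at 28 d, also lost a call under at least 1 alternative, and the cause was not tested. With 11 to 68 counts over the sham group, the folds of Chrdl1 and Bmp2 are limited by depth.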
